A study of Mus musculus with 22 samples.

Results

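The genes described are the nuclear genes for subunits of oxidative phosphorylation, the machinery of the mitochondrial inner membrane that carries electrons from NADH and succinate to oxygen and uses the resulting proton gradient to make ATP. They were chosen by symbol: every gene row whose symbol begins with Ndufa, Ndufb, Ndufc, Ndufs or Ndufv and a digit, with Uqcr, with Cox4 to Cox8 or with Atp5, and Sdha, Sdhb, Sdhc and Sdhd, without assembly factors and without 4 pseudogene symbols. That rule gave 84 of 46603 gene rows, of which 37 belong to complex I, 4 to complex II, 8 to complex III, 18 to complex IV and 17 to complex V. Atp5s, Atp5sl and Cox7a2l carry such symbols but act outside the complexes proper, and Ndufa4 is known today as a subunit of complex IV; all were kept where their symbols put them.

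RNA was sequenced from the intestine of male wild-type mice of the inbred strain C57BL/6, 7 weeks old when the diets began, in 22 libraries. Inulin_PFOS (n = 3), Pectin_PFOS (n = 4) and PFOS (n = 4) mice took perfluorooctane sulfonate (PFOS, a persistent fluorinated surfactant) in their drinking water at 3 µg per kg of body weight per day, on diets whose fibre was inulin, pectin and cellulose in that order. Inulin (n = 3), Pectin (n = 4) and Control (n = 4) mice ate the same fibres in that same order without PFOS. Diets were eaten for 7 weeks, held 8% fibre by weight and supplied fat for 35%, protein for 20% and carbohydrate for 45% of the energy, in all 6 groups alike. Exposure was read from the sample titles, since another label of every sample mentions PFOS. The sources used here name neither the gut segment nor the number of animals per library, so the p-values measure only the spread between these samples.

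Complex I oxidises NADH through core subunits that bind flavin and iron-sulfur centres, wrapped by many small accessory subunits. Complex II passes electrons from succinate and is the only complex with no subunit encoded in mitochondrial DNA. Complexes III and IV carry electrons on to oxygen, and complex V is the ATP synthase, whose F1 head makes ATP while a ring of c subunits turns in the membrane. Intestinal epithelium, smooth muscle and nerve all use these complexes, and several subunits of complex IV exist in a ubiquitous form and in forms typical of muscle, lung or testis.

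Promoters of these genes are known for sites of NRF1, of ETS-family factors such as GABPA, of YY1 and of the estrogen-related receptors (ERR). In RefSeq promoters of build GRCm38.p6, which run from 250 bases before to 50 bases after each gene's start, 69 of the 84 genes had an entry. The NRF1 motif, whose matches are the capitals in Sdha, stood in 13 of them (18.8%), against 4.23% of all 27025 promoters. The ETS motif CCGGAAG stood in 12 (17.4%, against 7.83% of all), the YY1 motif AAGATGGC in 2 (2.90%, against 1.83%) and the ERR motif AAGGTCA in 5 (7.25%, against 4.70%). All motifs were searched on both strands, in the 250 bases before the start only. The 50 bases after it were not searched. The 150 bases before the start are shown, 5′ to 3′ on the gene's strand, for 4 genes on which the comparisons turn, with motif matches on either strand in capitals. In Pectin_PFOS against Pectin, Sdha is an example of a gene that rose, while Ndufb4 and Atp5l are examples of genes that fell. Cox6b1 is an example of a gene that rose in another comparison, Inulin_PFOS against PFOS. They lie on the minus strand at chr13:74350241-74350390 for Sdha, chr7:30626115-30626264 for Cox6b1, chr16:37654369-37654518 for Ndufb4 and chr9:44920743-44920892 for Atp5l.
Sdha: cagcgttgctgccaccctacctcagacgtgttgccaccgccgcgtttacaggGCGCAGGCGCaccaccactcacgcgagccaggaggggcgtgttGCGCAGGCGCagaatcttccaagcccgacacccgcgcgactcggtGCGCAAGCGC
Cox6b1: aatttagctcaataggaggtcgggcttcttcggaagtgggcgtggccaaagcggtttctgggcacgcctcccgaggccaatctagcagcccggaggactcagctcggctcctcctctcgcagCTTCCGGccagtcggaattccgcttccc
Ndufb4: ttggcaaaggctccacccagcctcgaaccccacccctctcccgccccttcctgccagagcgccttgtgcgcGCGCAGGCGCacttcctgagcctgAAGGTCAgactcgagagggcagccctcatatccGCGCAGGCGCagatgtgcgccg
Atp5l: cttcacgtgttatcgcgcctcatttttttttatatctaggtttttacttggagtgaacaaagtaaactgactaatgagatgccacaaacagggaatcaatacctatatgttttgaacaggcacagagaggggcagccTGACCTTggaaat
Capitals mark 3 NRF1 matches in Sdha, 1 ETS match in Cox6b1, 2 NRF1 matches and 1 ERR match in Ndufb4 and 1 ERR match in Atp5l. A match is a run of letters and not a measured binding site. NRF1 matches stand in the promoter of a gene that rose and of one that fell in Pectin_PFOS against Pectin.

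Most of these subunits were among the abundant transcripts of the intestine. Levels between genes are compared as TPM, a length-corrected share of all transcripts, averaged over the 22 libraries: 64 of the 84 genes were above 100 TPM and 7 were below 10 TPM. Complex I members had a median of 138 TPM, from 0.657 TPM for Ndufa4l2, a relative of Ndufa4 known to be induced by low oxygen, to 587 TPM for the accessory subunit Ndufa6. Complex II members were close together, from 96.6 TPM for the membrane anchor Sdhc to 206 TPM for the iron-sulfur subunit Sdhb. Complex III had a median of 502 TPM and its highest member was the hinge protein Uqcrh at 1020 TPM, while the core protein Uqcrc2 was lowest at 156 TPM. In complex IV, Cox6c averaged 1597 TPM and Cox4i1, the ubiquitous form of a large nuclear subunit, 1592 TPM. Complex V had a median of 421 TPM, from 2.88 TPM for Atp5s to 1193 TPM for Atp5g3, one of the genes for the c subunit. A gene with near-identical copies elsewhere can share reads with them, and 17 members had fractional counts in at least 1 library, 10 of them in all 22: Ndufb4, Ndufs5, Cox5b, Cox7a2l, Cox7c, Atp5f1, Atp5g1, Atp5g2, Atp5l and Atp5o.

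Forms of complex IV subunits known from other tissues were mostly low. Cox7b2 and Cox8c, forms known from testis, had 0 counts in every library. The muscle forms Cox6a2 and Cox8b averaged 0.209 and 5.06 TPM, and Cox4i2, known from lung, averaged 1.08 TPM. Cox7a1, the form typical of heart and skeletal muscle, stood apart at 198 TPM, between 100 and 367 TPM in single libraries. Cox6b2, known from testis, averaged 56.1 TPM, between 12.3 and 89.7 TPM. Of markers of skeletal muscle and germ cells, the fast myosin gene Myh4 and the sperm chromatin genes Tnp1 and Prm1 had no counts in any library. The skeletal muscle actin gene Acta1 lay between 2.03 and 254 CPM (counts scaled to library size) and the muscle creatine kinase gene Ckm between 4.07 and 37.0 CPM, beside 13.1 to 43.6 CPM for Cox7a1. Of the other skeletal muscle markers, Pvalb had no counts in any library. Myh1, Myh2, Tnnt3 and Mylpf reached at most 0.222, 1.93, 0.425 and 1.49 CPM in that order. The part of muscle fibres in the level of Cox7a1 was not tested.

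**Figure D1:**
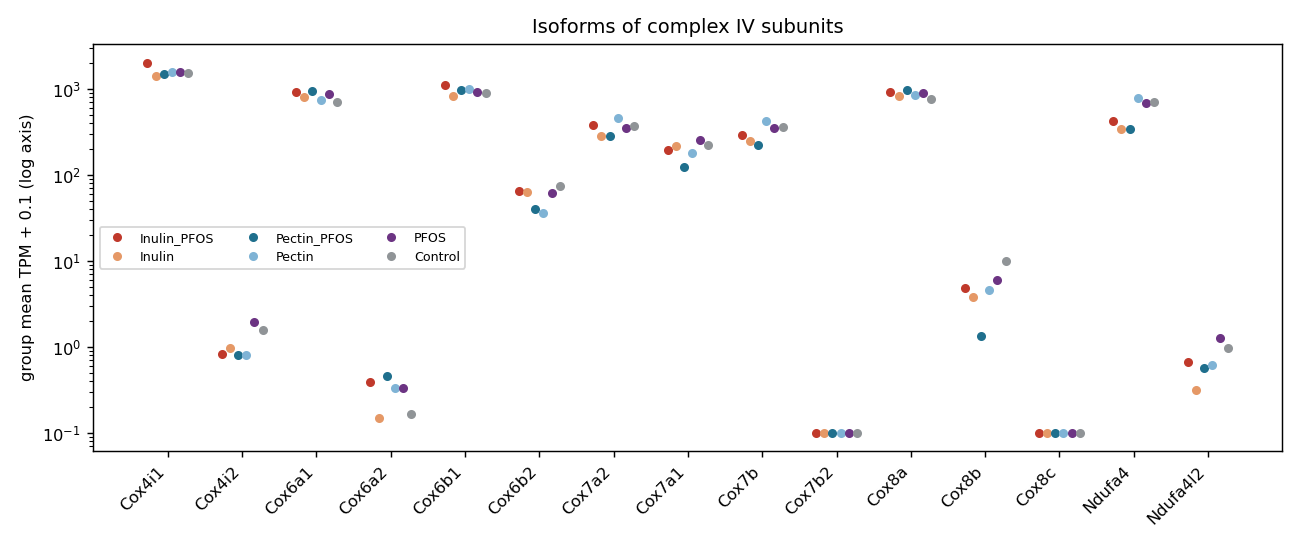
Group mean TPM + 0.1 (log axis) of the ubiquitous and the tissue-restricted forms of complex IV subunits, Ndufa4 and Ndufa4l2 included; each point is 1 group. Cox7a1, which averaged 198 TPM over all libraries, lies above the other restricted forms, and Cox7b2 and Cox8c lie at 0 TPM.

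Libraries held between 17613322 and 20261370 counts, and the 84 genes took 1.01 to 1.85% of them. Genes of the mitochondrial DNA took between 2.85 and 14.9% of the counts of a library. Enterocyte markers were present throughout, with 11 of 11 tested and a summed level between 15096 and 95020 CPM. The summed level of 12 smooth muscle markers was 4514 to 12052 CPM in Inulin_PFOS and 1631 to 5121 CPM in Inulin, 1214 to 3122 CPM in Pectin_PFOS and 3104 to 6267 CPM in Pectin, and 2985 to 5269 CPM in PFOS and 2662 to 11723 CPM in Control. In bulk tissue, fewer cells of a type and less RNA per cell cannot be told apart.

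Summed over the members in CPM with edgeR's TMM scaling, the transcripts were highest in Inulin_PFOS and Pectin and lowest in PFOS. The CPM sum was 15814 ± 2833 CPM in Inulin_PFOS and 11364 ± 768 CPM in Inulin (SD, n = 3 each), a ratio of 1.39. It was 13152 ± 700 CPM in Pectin_PFOS and 15772 ± 1525 CPM in Pectin (SD, n = 4 each), a ratio of 0.834. It was 10820 ± 1898 CPM in PFOS and 11919 ± 1614 CPM in Control (SD, n = 4 each), a ratio of 0.908. The groups did not overlap on inulin, since the lowest Inulin_PFOS library had 13142 CPM and the highest Inulin library 11991 CPM. On pectin they overlapped by little, with 12525 to 13975 CPM in Pectin_PFOS and 13909 to 17431 CPM in Pectin. The order depended on the scale: in deposited TPM the sums averaged 30286 ± 5028 in Inulin_PFOS and 24963 ± 1353 in Inulin (SD, n = 3 each), 25721 ± 2399 in Pectin_PFOS and 31291 ± 3013 in Pectin, and 29058 ± 3385 in PFOS and 28622 ± 4420 in Control (SD, n = 4 each). On that scale the mean was lowest in Inulin, and that of PFOS lay above that of Pectin_PFOS and, by less than the SD, of Control.

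**Figure D2:**
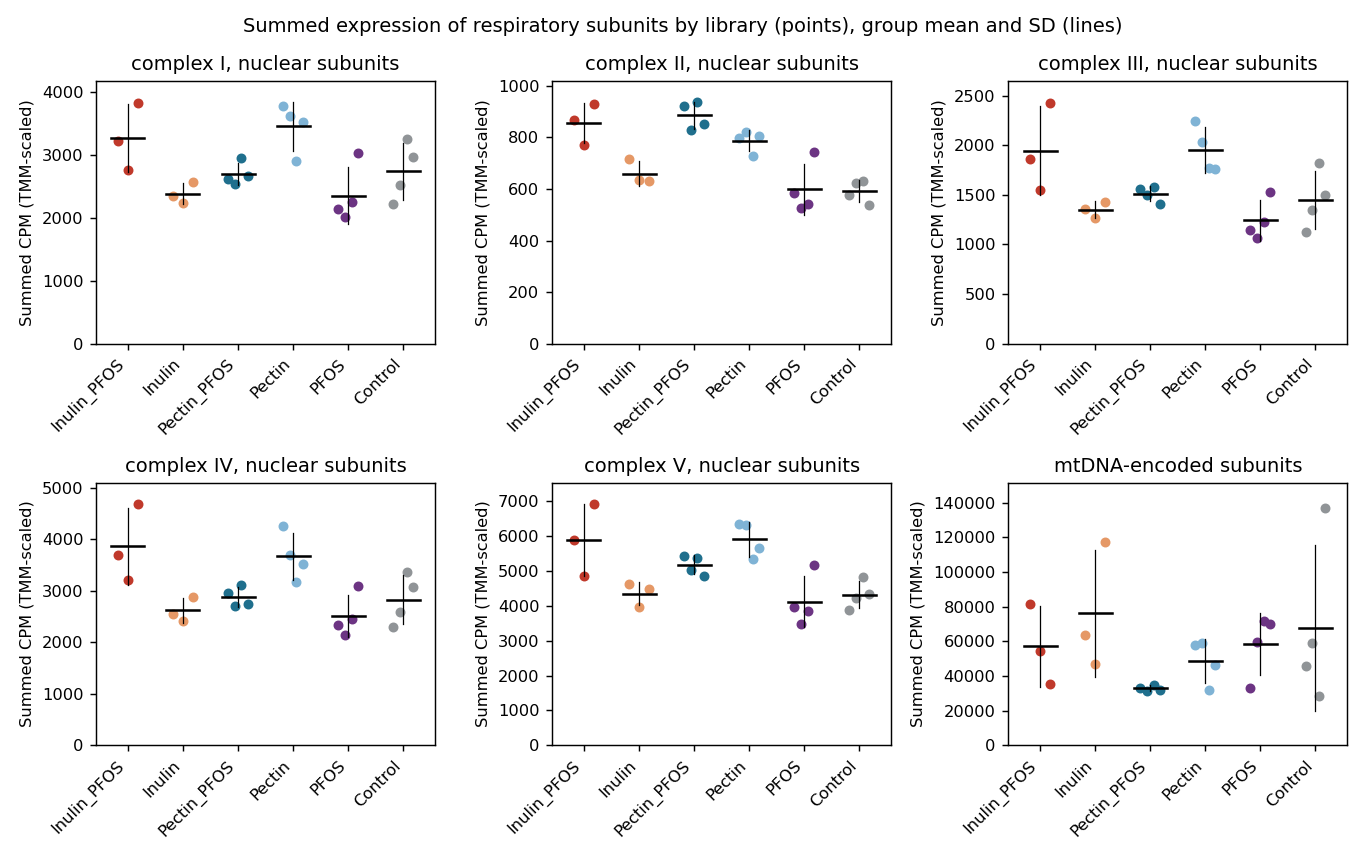
Summed CPM of the members of each complex and of the subunits encoded in mitochondrial DNA, by group; points are libraries, the horizontal line is the group mean and the vertical line the SD. Complex II is the panel in which Pectin_PFOS (886 ± 52.8 CPM) lies above Pectin (788 ± 41.2 CPM).

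On pectin the summed level of complex II was higher with PFOS and that of the other complexes lower. For complex II it was 886 ± 52.8 CPM in Pectin_PFOS and 788 ± 41.2 CPM in Pectin, a ratio of 1.12. The ratio was 0.780 for complex I, 0.774 for complex III, 0.786 for complex IV and 0.876 for complex V. Parts of a complex differed, with 1.31 for the catalytic subunits of complex II and 0.896 for its membrane anchors. The core proteins of complex III (1.14) and the F1 head of complex V (1.07) also had higher sums with PFOS. As a share of the TPM of all members, complex II made up 2.53 to 2.68% in the 4 Pectin_PFOS libraries. In the other 18 libraries the share lay between 1.58 and 2.36%, so each Pectin_PFOS library was above every library of the other groups. The ratio of the summed TPM of nuclear members to that of the mitochondrially encoded subunits varied more, from 0.433 to 0.490 in Pectin_PFOS and from 0.123 to 0.700 over all libraries.

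Each gene was tested in all 22 libraries together with edgeR's quasi-likelihood test, over 15763 genes with enough counts, and is called changed where its Benjamini-Hochberg adjusted p is under 0.05. Of the 84 members 81 passed the count filter; Cox7b2, Cox8c and Cox6a2 did not. Changes are given as log2 fold changes with their standard error (SE).

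PFOS and pectin together, set against pectin alone, went with lower transcripts of many small subunits and a higher transcript of Sdha. In Pectin_PFOS, 23 members fell and 1 rose against Pectin, while 9.43% of all tested genes fell and 11.4% rose. The members' median was -0.28, beside -0.06 for all tested genes. The fallen genes were 9 of 37 in complex I, 3 of 8 in complex III, 5 of the 15 tested in complex IV and 6 of 17 in complex V. No member of complex II fell. All 12 smooth muscle markers were below 0 in this comparison, with a median of -0.97 and none called. The 6 B and plasma cell markers summed to 58.4 to 362 CPM in Pectin_PFOS and 760 to 1653 CPM in Pectin, all 6 were below 0 and 1 fell, and of 12 fibroblast markers 6 fell. The part of these cells in the result was not tested. Leaving out single libraries moved this count of changed members between 7 and 27, with 7 without Pectin 2, 8 without Pectin 1, 9 without Pectin_PFOS 1 and 15 without Pectin_PFOS 4.

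In complex V all 3 small subunits of the membrane part fell: Atp5l and Atp5k, known for joining the synthase into dimers, and Atp5j2. Atp5l, the g subunit, had 155, 150, 167 and 146 CPM in Pectin_PFOS and 455, 407, 329 and 219 CPM in Pectin. Every Pectin_PFOS library was below every Pectin library, and the log2 fold change was -1.19 (SE 0.27, edgeR adjusted p = 0.00807). The epsilon subunit Atp5e of the F1 head fell by 1.05 on the log2 scale (adjusted p = 0.0203, edgeR), as did the stalk subunits Atp5j (by 0.85) and Atp5f1 (by 0.69). Of the catalytic head, Atp5b had 1541, 1360, 1381 and 1243 CPM in Pectin_PFOS and 842, 1135, 1129 and 1137 CPM in Pectin. That beta subunit was not called, although its groups did not overlap.

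Among accessory members of complex I, Ndufb2, Ndufb4, Ndufb6, Ndufb8, Ndufc2, Ndufa7 and Ndufs4 fell, as did Ndufa4, placed there by its symbol only. Of the 7 core subunits Ndufv2, an iron-sulfur protein, fell. Ndufb4 had 19.2, 19.6, 21.2 and 21.9 CPM in Pectin_PFOS and 61.2, 59.5, 44.3 and 30.1 CPM in Pectin, with a log2 fold change of -1.25 (SE 0.32, edgeR adjusted p = 0.0135). Ndufa4 had 99.7, 107, 134 and 124 CPM in Pectin_PFOS and 328, 286, 183 and 256 CPM in Pectin, with a log2 fold change of -1.18 (SE 0.30, edgeR adjusted p = 0.013). Ndufb2 had 22.9, 27.3, 27.5 and 28.1 CPM in Pectin_PFOS and 58.8, 59.0, 43.1 and 36.3 CPM in Pectin. None of these groups overlapped. Ndufb2 and Ndufb8 share exon bases on the same strand with the gene models Gm42420 and Gm20538, so their reads may be divided between models.

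In complex III the small accessory proteins Uqcr11, Uqcr10 and Uqcrq fell, by 0.87, 0.73 and 0.81 on the log2 scale, and the 5 accessory members had a median of -0.73. The large core proteins Uqcrc1 and Uqcrc2 had a median of 0.17, and neither was called, nor was the Rieske iron-sulfur protein Uqcrfs1, at -0.28. Uqcr10 had 89.7, 91.6, 100.2 and 94.7 CPM in Pectin_PFOS and 163, 169, 146 and 145 CPM in Pectin, with no overlap. In complex IV, Cox6c, Cox7a2, Cox7b and Cox7c fell, all short subunits with a single membrane helix, as did Cox8b, which averaged 0.148 CPM in Pectin_PFOS and 0.669 CPM in Pectin.

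Sdha, the flavoprotein of complex II that oxidises succinate, rose in Pectin_PFOS against both Pectin and PFOS. It had 385, 360, 378 and 348 CPM in Pectin_PFOS, 255, 267, 257 and 305 CPM in Pectin and 244, 202, 213 and 245 CPM in PFOS. In CPM every Pectin_PFOS library was above every library of both other groups, whereas in TPM they overlapped the PFOS libraries. The log2 fold change was 0.44 against Pectin (SE 0.14, edgeR adjusted p = 0.0292) and 0.70 against PFOS (SE 0.14, edgeR adjusted p = 0.00369). The call against Pectin did not pass with library totals (log2 fold change 0.22) or in TPM (log2 fold change 0.50). Both comparisons use the same Pectin_PFOS libraries.

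Against PFOS on cellulose, Pectin_PFOS had higher transcripts of 15 members, among them Sdha, Ndufv1, Uqcrc1 and Atp5b, and no member fell. Of 81 members 15 rose and 0 fell, while 7.70% of all tested genes rose and 8.33% fell. They were 7 of complex I, 3 of complex II, 2 of complex III, 1 of complex IV and 2 of complex V. The members' median was 0.23, beside -0.03 for all tested genes. When library totals replaced TMM, the edgeR scaling used throughout, the members' median turned to -0.14, and it was -0.14 too on the log2(TPM + 1) scale. The median of all genes moved by more, to -0.41 under library totals, so the members stood 0.26 above all genes with TMM, 0.27 above with library totals and 0.15 above in TPM. Under library totals and in TPM none of the 15 genes passed, and the members that did pass, 7 under library totals and 9 in TPM, were all lower: Ndufb4, Ndufa4, Atp5j, Atp5l, Cox7a1 and Cox8b under both. Uqcrc1 and Sdha stayed above 0, with log2 fold changes of 0.40 under library totals and 0.35 in TPM for Uqcrc1 and of 0.32 and 0.21 for Sdha.

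In complex I the genes that rose were the core subunits Ndufv1, which binds NADH, Ndufs1 and Ndufs8, which hold iron-sulfur centres, and the accessory subunits Ndufa9, Ndufa10, Ndufa12 and Ndufv3. Ndufa9 had 101, 98.5, 122 and 103 CPM in Pectin_PFOS and 73.5, 61.4, 61.6 and 80.6 CPM in PFOS, with a log2 fold change of 0.61 (SE 0.14, edgeR adjusted p = 0.00697). Its groups did not overlap in CPM but did in TPM. Ndufa10 had 83.9, 77.6, 75.3 and 74.3 CPM in Pectin_PFOS and 47.3, 40.4, 40.1 and 50.6 CPM in PFOS, also without overlap, and a log2 fold change of 0.80 (SE 0.19, edgeR adjusted p = 0.00842). Ndufs1 had 75.9, 84.8, 77.1 and 76.2 CPM in Pectin_PFOS and 57.5, 53.2, 55.1 and 66 CPM in PFOS, a log2 fold change of 0.44 that became -0.14 on the log2(TPM + 1) scale.

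Both core proteins of complex III rose. Uqcrc1 had 328, 316, 327 and 320 CPM in Pectin_PFOS and 198, 159, 175 and 217 CPM in PFOS, with a log2 fold change of 0.78 (SE 0.19, edgeR adjusted p = 0.0118). In CPM the groups did not overlap, whereas in TPM they did, at 217 to 274 TPM in Pectin_PFOS and 162 to 229 TPM in PFOS. Uqcrc2 rose by 0.58. In complex II, Sdhb and Sdhc rose beside Sdha, by 0.57 and 0.54, although the Sdhb groups overlapped. In complex V the rise was in Atp5a1 and Atp5b, the alpha and beta subunits of the F1 head, by 0.58 and 0.53, and in complex IV in Cox5b, a subunit on the matrix side, by 0.50. The muscle forms Cox7a1 (log2 fold change -0.83, edgeR adjusted p = 0.0543) and Cox8b (-1.96, adjusted p = 0.0793) lay lower and were not called.

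Sdha, Ndufa9, Ndufa10 and Uqcrc1 passed in each of 22 fits that left out 1 library, and the other 11 genes in 12 to 20 of them. The number of genes called was 5 without PFOS 2 or without PFOS 3, 6 without Pectin_PFOS 1 and 9 without Pectin_PFOS 3. Fibroblast markers moved with this comparison, as 8 of 12 fell in Pectin_PFOS, where their summed level was 176 to 384 CPM, against 570 to 787 CPM in PFOS. Their summed level was 618 to 748 CPM in Pectin, and 6 of 12 fell against Pectin. Of 11 enterocyte markers 2 rose against PFOS and 3 against Pectin. The part of tissue composition in these results was not tested.

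**Figure D3:**
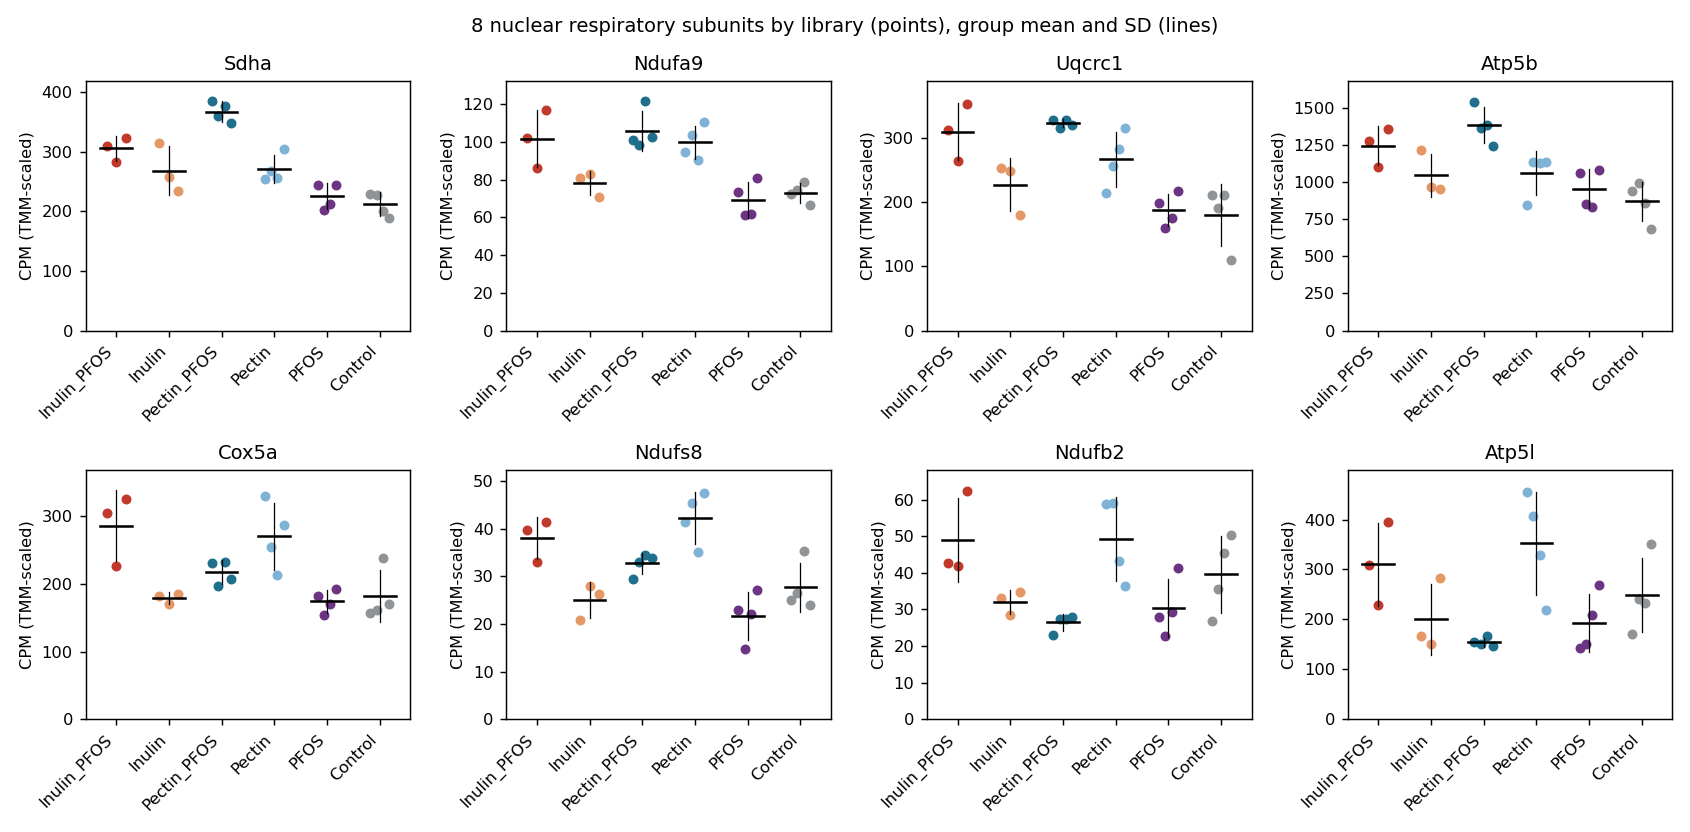
CPM of 8 members in each library, by group; points are libraries, the horizontal line is the group mean and the vertical line the SD. Sdha, Ndufa9 and Uqcrc1 lie higher in Pectin_PFOS than in PFOS, while Ndufb2 and Atp5l lie lower in Pectin_PFOS than in Pectin.

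Inulin with PFOS, set against PFOS on cellulose, went with higher transcripts of 6 members of complex I, 2 of complex IV and 1 of complex V. In Inulin_PFOS 9 members rose and 0 fell, while 1.84% of all tested genes rose and 0.799% fell. The members' median was 0.52 and 76 of 81 fold changes were above 0, beside a median of -0.01 and 49.3% for all tested genes. With library totals the members' median was 0.20 and that of all genes -0.33, and in TPM the members' median was 0.02. None of the 9 genes passed under either, Atp5s and Atp5sl passed as lower in TPM, and Ndufa9 had a log2 fold change of 0.02 in TPM. Relative to all genes the members' median stood 0.53 higher with TMM, 0.54 higher with library totals and 0.38 higher in TPM.

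The genes that rose in Inulin_PFOS were the core subunit Ndufs8 and the accessory subunits Ndufa7, Ndufa9, Ndufa11, Ndufb9 and Ndufv3 of complex I, Cox5a and Cox6b1 of complex IV and Atp5e of complex V. Ndufs8 had 39.7, 33.0 and 41.4 CPM in Inulin_PFOS and 22.9, 14.7, 22.1 and 27.1 CPM in PFOS, with a log2 fold change of 0.81 (SE 0.18, edgeR adjusted p = 0.0229). Ndufv3 had 65.1, 64.9 and 94.4 CPM in Inulin_PFOS and 43.4, 35.6, 39.4 and 54.1 CPM in PFOS, with a log2 fold change of 0.79 (SE 0.18, edgeR adjusted p = 0.0218). Cox6b1, which lies on the outer face of complex IV, had 281, 252 and 428 CPM in Inulin_PFOS and 190, 159, 172 and 211 CPM in PFOS, with a log2 fold change of 0.81 (SE 0.19, edgeR adjusted p = 0.0245). Ndufb9 shares exon bases on the same strand with the gene model Gm49356.

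The number of genes called hung on single libraries here. It was 0 without Inulin_PFOS 3, PFOS 1, PFOS 2 or PFOS 3, 1 without Inulin_PFOS 1, 5 without Inulin 1, 16 without Control 4 and 20 without PFOS 4. Ndufa9, Ndufv3 and Ndufs8 rose in both Inulin_PFOS and Pectin_PFOS, but both comparisons use the same PFOS libraries. Ndufs8 had 29.4, 33.1, 34.5 and 33.9 CPM in Pectin_PFOS, above all PFOS libraries and overlapping the Inulin_PFOS libraries. The 12 smooth muscle markers were all above 0 in Inulin_PFOS against PFOS, none of them called, with a ratio of summed levels of 1.78. The 6 B and plasma cell markers summed to 498 to 857 CPM in Inulin_PFOS and 65.4 to 365 CPM in PFOS, and none was called. The part of these cells in the result was not tested.

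On inulin, PFOS went with a shift of nearly all members in 1 direction that no single gene carried past the threshold. In Inulin_PFOS against Inulin 0 members passed in edgeR, while 0.159% of all tested genes did. At an unadjusted p under 0.05, 44 members were higher and 1 lower in edgeR, beside 9.26% and 9.54% of all tested genes. The DESeq2 test called 2 members, Cox5a and Cox6b1, both higher. The share of all tested genes that it called is not given here. The fold change was above 0 for 80 of 81 members, against 49.4% of all tested genes, and the members' median was 0.47 beside -0.01 for all. The 3 Inulin_PFOS libraries lay above the 3 Inulin libraries for 46 members and below for 1, where 12.2% of all tested genes lay above and 12.1% below. Under library totals and in TPM the members' median stood 0.48 and 0.36 above that of all genes, beside 0.47 with TMM. The fold change was above 0 for 79 members under library totals and for 69 in TPM.

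Cox5a, a subunit on the matrix side of complex IV, had 305, 227 and 326 CPM in Inulin_PFOS and 182, 170 and 185 CPM in Inulin, with a log2 fold change of 0.67 and the smallest adjusted p of the members (0.11, edgeR). Cox6b1 had 281, 252 and 428 CPM in Inulin_PFOS and 202, 199 and 204 CPM in Inulin, with a log2 fold change of 0.67 (edgeR adjusted p = 0.119). Cox4i1 had 925, 899 and 1426 CPM in Inulin_PFOS and 653, 605 and 634 CPM in Inulin, with a log2 fold change of 0.78 (edgeR adjusted p = 0.157). In all 3 genes the groups did not overlap, and the Inulin libraries lay close together. Atp5sl, which is no subunit of the synthase, was the member below 0, at -0.58 (edgeR adjusted p = 0.227). The 12 smooth muscle markers moved with the members, as their median log2 fold change was 1.34 and all 12 were above 0, none of them called. The part of these cells in the result was not tested.

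**Figure D4:**
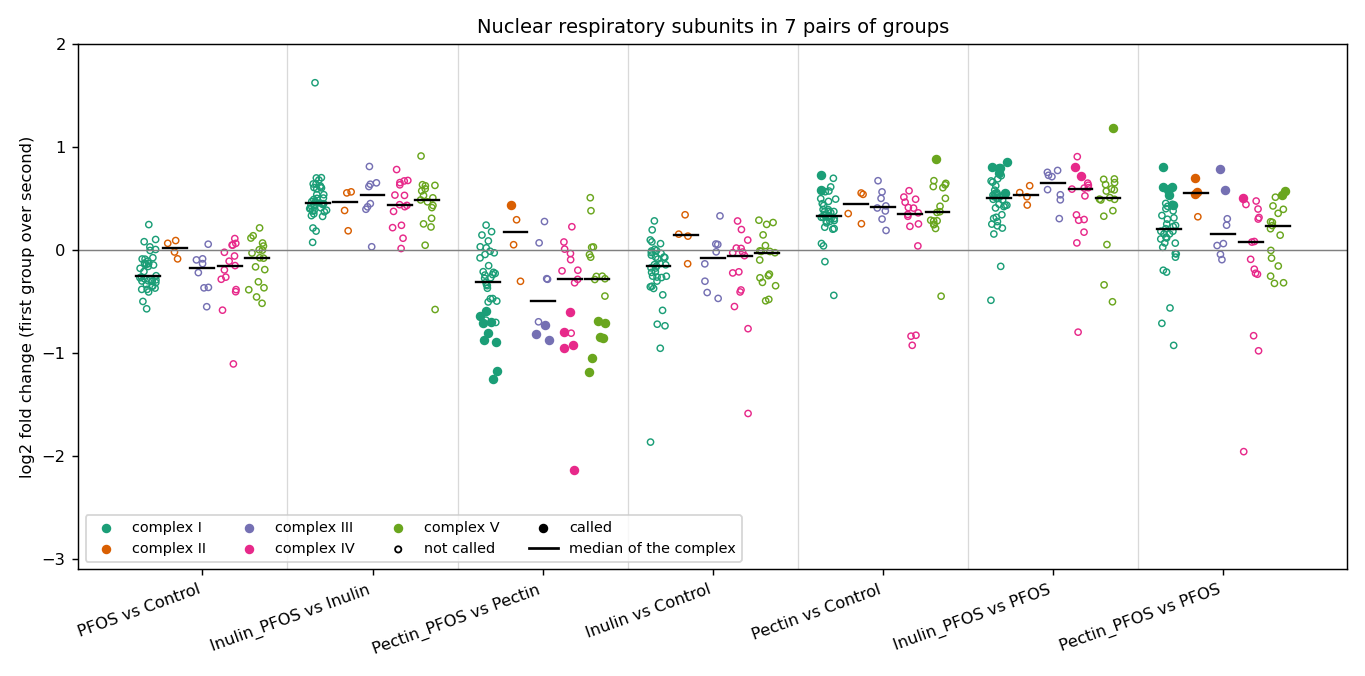
Log2 fold change of each tested member in 7 comparisons, by complex; each point is 1 gene, filled where its edgeR adjusted p is under 0.05, and the line is the median of the complex. In Inulin_PFOS against Inulin 80 of 81 points lie above 0 with none filled, and in Pectin_PFOS against Pectin 23 are filled below 0 and 1 above.

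The effect of PFOS on inulin was set directly against its effect on pectin, a difference of differences added after the data were seen. For 36 members the log2 effect of PFOS was higher on inulin than on pectin and for 1 it was lower, while 12.3% of all tested genes were called higher and 13.1% lower. Each complex held some of the 36: 16 of complex I, 1 of complex II (the membrane anchor Sdhd), 4 of complex III, 6 of complex IV and 9 of complex V. Uqcr10 had the smallest adjusted p, with a difference of 1.38 log2 units (SE 0.29, edgeR adjusted p = 0.00617). For Atp5l the difference was 1.82 (SE 0.41, adjusted p = 0.00767, edgeR), and the gene had 308, 228 and 395 CPM in Inulin_PFOS and 167, 151 and 282 CPM in Inulin. The member called lower was Atp5sl, at -1.09 (adjusted p = 0.025, edgeR). Of the 12 smooth muscle markers 11 were called higher in this contrast too, and their part in the result was not tested. Without Inulin 1, Inulin_PFOS 3 or Inulin 2 the members called in either direction were 17, 20 and 24.

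The difference between the effect of PFOS on a fibre and its effect on cellulose was called for no member. For inulin, 0 members passed in edgeR and 0% of all tested genes did. At an unadjusted p under 0.05, 40 members were higher and 1 lower, beside 10.6% and 9.04% of all genes, and the smallest adjusted p was 0.098 in edgeR. DESeq2 called 4 members higher, Ndufa7, Ndufs8, Uqcr10 and Cox6b1. The share of all tested genes that DESeq2 called is not given here, and edgeR's 0% is no measure for it. For pectin, 0 members passed in edgeR or DESeq2 and 0% of all genes did in edgeR, with 2 members and 4.38% of all genes lower at an unadjusted p under 0.05. Those 2 were Atp5l (-0.82) and Cox7a1 (-0.87), named after their values were seen. Averaged over the 3 diets, PFOS changed 0 members in edgeR or DESeq2, where 0.159% of all tested genes passed, with 8 members higher and 3 lower at an unadjusted p under 0.05, beside 6.16% and 8.74% of all genes.

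On cellulose, PFOS itself left no detectable change in the members. In PFOS against Control 0 of 81 passed in edgeR and in DESeq2, as did 0% of all tested genes, and 2 members were lower at an unadjusted p under 0.05, beside 3.55% of all genes. These were Atp5g2 (-0.46) and Ndufa7 (-0.41), named after their values were seen, both with an adjusted p of 0.822. The members' median was -0.15 with TMM and -0.05 with library totals, and 0.08 in TPM, where all genes moved too; relative to all genes it was -0.11, -0.12 and -0.08. Atp5b had 1061, 853, 828 and 1081 CPM in PFOS and 936, 994, 859 and 686 CPM in Control. Cox4i1 had 593, 509, 490 and 721 CPM in PFOS and 546, 653, 1010 and 361 CPM in Control, where 1 library was high and 1 low, and the groups overlapped for both genes.

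Pectin without PFOS went with higher transcripts of a few members. In Pectin against Control 3 members rose and 0 fell, while 1.03% of all tested genes rose and 0.958% fell. They were Atp5g1, a gene of the c ring, and the complex I subunits Ndufa10 and Ndufa12. Atp5g1 had 76.7, 102, 76.3 and 125 CPM in Pectin and 57.0, 47.7, 60.8 and 40.5 CPM in Control, with no overlap and a log2 fold change of 0.88 (SE 0.19, edgeR adjusted p = 0.0293). Ndufa10 rose by 0.73 (adjusted p = 0.0462, edgeR) and Ndufa12 by 0.58 (adjusted p = 0.0485, edgeR). The fold change was above 0 for 75 of 81 members, against 42.2% of all tested genes, with a median of 0.36 beside -0.08. Leaving out 1 library left 0 calls for Pectin 2, Pectin 4 and Control 2, and 1 for Pectin 3, Control 1, PFOS 1, Pectin_PFOS 2, Pectin_PFOS 3 and each Inulin_PFOS library, while 5 passed without PFOS 4. No gene passed with library totals or in TPM, where the members' median still stood 0.45 and 0.35 above that of all genes, beside 0.45 with TMM. All 12 proliferation markers were higher in Pectin, with a summed level of 229 to 284 CPM in Pectin and 106 to 149 CPM in Control, though none was called, and their part in the result was not tested.

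In Inulin against Control 0 of 81 members passed in edgeR and in DESeq2, as did 0% of all tested genes. At an unadjusted p under 0.05, 1 was higher and 6 lower, beside 8.09% and 12.6% of all genes. The higher one was Sdha, with 315, 258 and 234 CPM in Inulin and 229, 228, 201 and 190 CPM in Control, a log2 fold change of 0.34 (edgeR adjusted p = 0.2) and no overlap. Ndufa4 had the smallest adjusted p (0.127, edgeR) at a log2 fold change of -0.95. The median of the members was -0.13, beside -0.02 for all tested genes.

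Length of the transcript moved with these comparisons, over all genes and not the members alone. The members are short, with a median of 823.5 nt (360 to 4715 nt) in the longest principal coding transcript of GENCODE M21, against 2991.5 nt for all tested genes with a length. In Pectin_PFOS against Pectin, other genes under 600 nt had a median log2 fold change of -0.63 and the 20 members of that length -0.60. Other genes of 2000 to under 4000 nt had a median of 0.00 and the 6 members of that length 0.11. The members that fell had a median length of 680 nt, and Sdha, which rose, has 2900 nt.

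In Inulin_PFOS against Inulin the short classes lay the other way, at 0.52 for other genes under 600 nt and 0.49 for members. At 2000 to under 4000 nt the medians were -0.03 for other genes and 0.31 for members, so the longer members stood above genes of their length. In Pectin_PFOS against PFOS the short genes lay near 0, with 0.05 for other genes and 0.01 for members, while at 2000 to under 4000 nt the medians were 0.01 for other genes and 0.56 for members. Of the 15 members that rose there, 14 were of 1000 nt or more, and their median length was 1661 nt against 731.5 nt for the members not called. In Inulin_PFOS against PFOS other genes under 600 nt had a median of 0.48 and members 0.55, and at 2000 to under 4000 nt the medians were 0.00 and 0.51.

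**Figure D5:**
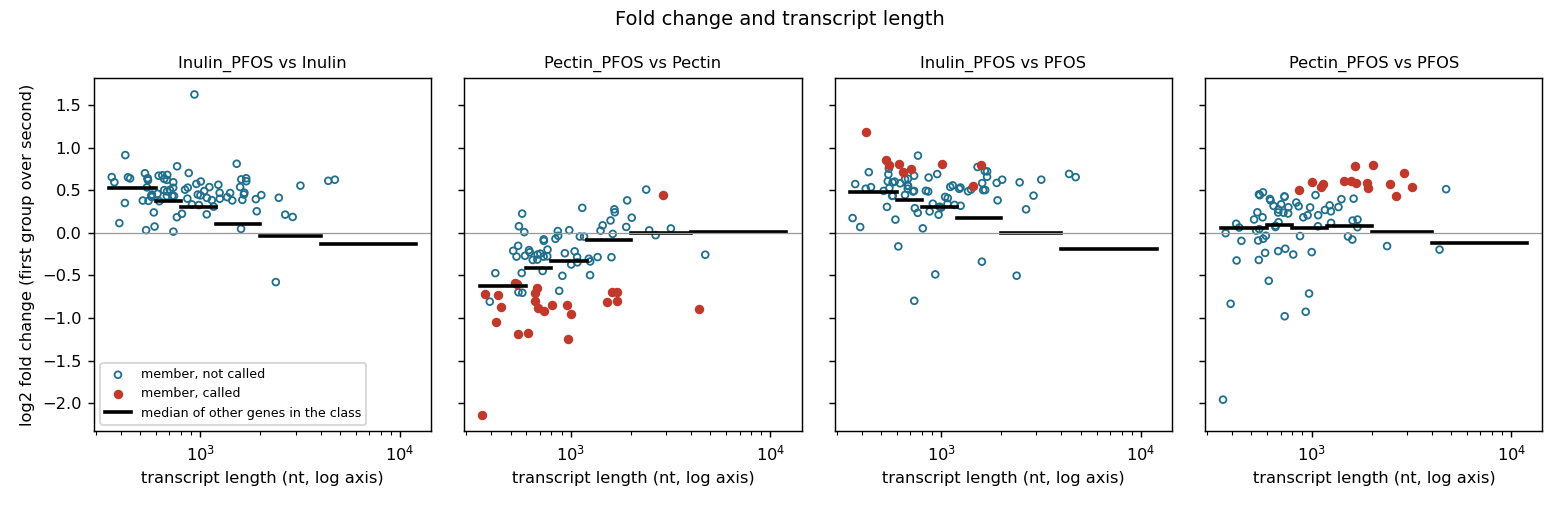
Log2 fold change against transcript length (log axis, nt) in 4 comparisons; points are members, filled where called, and the horizontal lines are the median of the other tested genes in each length class. Under 600 nt the median of other genes is -0.63 in Pectin_PFOS against Pectin, 0.52 in Inulin_PFOS against Inulin and 0.05 in Pectin_PFOS against PFOS.

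A fit with a trend on transcript length in each library, added after the data were seen, left the calls against PFOS on pectin and took away many of the others. All 15 genes that rose in Pectin_PFOS against PFOS passed in that fit. Against Pectin, 7 of the 24 calls passed: Atp5l, Ndufb2, Ndufb4, Ndufv2, Ndufs4 and Uqcrq lower and Sdha higher. Atp5k, Cox7c and Ndufa7 moved to 0.05, 0.01 and 0.02 in that fit, and the members' median there became 0.06, the sign opposite to that without the trend. In Inulin_PFOS against PFOS only Ndufv3 passed, in Pectin against Control Atp5g1 and Ndufa10 did, and the contrast of the PFOS effect on inulin and on pectin kept 7 of its 37 calls. The members' median in Inulin_PFOS against Inulin became 0.15, with 63 members above 0 and 18 below. The fit used lengths of 4371 nt for Ndufb2, 1521 nt for Uqcrq and 4715 nt for Atp5g1. In Inulin_PFOS 1 their TPM exceeded their CPM (141 and 42.7, 961 and 388, 217 and 98.8), as for Ndufa7 of 528 nt (219 and 67.4). The same held for Ndufv3 of 1582 nt (161 and 65.1) and Ndufa12 of 1110 nt (118 and 44.6). For Ndufa9 of 1445 nt TPM lay below CPM (77.7 and 102). The calls of Ndufb2, Uqcrq, Atp5g1, Ndufv3 and Ndufa12 in that fit may thus rest on lengths that are too long. Ndufv3 is the only call left in Inulin_PFOS against PFOS, and Ndufv3 and Ndufa12 are among the 15 in Pectin_PFOS against PFOS. The cause of the trend with length was not tested.

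With TMM, subunits encoded in mitochondrial DNA did not move with the nuclear ones in Pectin_PFOS against PFOS. Under library totals 55 of the 81 nuclear members lay below 0 there, and in TPM 57 did. Of the 13 mitochondrially encoded subunits, 4 fell there with TMM and none rose, while 8.33% of all tested genes fell and 7.70% rose. They were mt-Nd3 (-1.94), mt-Nd4l (-1.66) and mt-Nd6 (-1.38) of complex I and mt-Atp6 (-1.26) of complex V. Against Pectin, where 9.43% of all tested genes fell, 3 of the 13 did, mt-Nd3 (-2.46), mt-Co3 (-1.34) and mt-Atp6 (-1.51), and all 13 were below 0 in both comparisons. Their summed level was 32825 ± 1730 CPM in Pectin_PFOS, 48868 ± 12786 CPM in Pectin and 58515 ± 17922 CPM in PFOS (SD, n = 4 each). In Inulin_PFOS against Inulin all 13 were below 0 as well, none of them called. With TMM 80 of 81 nuclear members were above 0 there. The summed levels of the 13 overlapped, at 81607, 54171 and 35411 CPM in Inulin_PFOS and 63716, 47162 and 117457 CPM in Inulin. The highest of these values came from Inulin 3 alone.

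Other genes of mitochondrial metabolism, assembly and translation moved in both directions. Their counts stand beside all tested genes, of which 7.70% rose and 8.33% fell in Pectin_PFOS against PFOS, 11.4% rose and 9.43% fell against Pectin, and 1.84% rose in Inulin_PFOS against PFOS. Of 17 genes of the citric acid cycle and pyruvate dehydrogenase, 6 rose in Pectin_PFOS against PFOS, among them Ogdh (0.87), a component of the alpha-ketoglutarate dehydrogenase complex. Against Pectin 4 rose, among them Ogdh (1.14), citrate synthase Cs (0.93) and Dlst (0.85), and Dlat, of pyruvate dehydrogenase, fell by 0.52. Of 45 assembly factors tested, 11 fell and none rose against Pectin, among them Pet100 (-1.80) and Coa6 (-1.74) of complex IV and Uqcc2 (-1.16) of complex III. Against PFOS, 4 assembly factors rose (Ndufaf1, Acad9, Sco1 and Cox15) and Pet100 fell, and in Inulin_PFOS against PFOS Acad9 (0.97) and Cox14 (0.83) rose. Of 14 regulators of mitochondrial biogenesis, 2 rose in Pectin_PFOS against Pectin, a share near that of all genes: the transcription factor Nrf1 (0.52) and Gabpb1 (0.63), the partner of GABPA. Against PFOS only Gabpb1 (0.59) of the 14 rose. Of 77 proteins of the mitochondrial ribosome, 19 fell against Pectin, and 2 rose against PFOS, a smaller share than of all genes.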

How the data were processed

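The authors deposited 1 table of expected (estimated) counts per gene and 1 of TPM. Per the labels' protocols the libraries are stranded and were read on a DNBSEQ sequencer; per the submitters' processing notes HISAT, Bowtie2 and build GRCm39 were used. The coordinates in the deposited count table are those of GRCm38, which is the build used here for lengths (GENCODE M21) and promoters (RefSeq, GRCm38.p6). Neither the counting program nor its strand setting is given in the sources used here, and exons of 26 members overlap a gene on the other strand, so reads of such pairs may not be told apart.

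Expected counts as deposited were rounded to integers and tested with edgeR 4.0.16 in R 4.3.3: filterByExpr, TMM scaling, 1 mean per group over all 22 libraries, robust quasi-likelihood F test, Benjamini-Hochberg adjustment within each comparison over 15763 genes and a threshold of 0.05. SE values come from the fold change and its F statistic (|log2 fold change| / √F). The biological coefficient of variation was 31.87%, which limits the precision of each fold change. CPM are TMM-scaled, and fold changes were never taken between genes. Deposited TPM, scaled by the authors within each sample, served for levels between genes and for limma 3.58.1 on log2(TPM + 1). DESeq2 1.42.0, library totals, other filters, pseudocount 0.1, only the groups compared, replicate numbers as a block and leaving out each library were also tried; the length offset and the contrast of the PFOS effect on inulin and pectin were added after seeing the data. The edgeR fit was tested on simulated counts.

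Genes named are a fixed core subunit per complex, restricted isoforms and their partners, all calls of a comparison or the 5 with the smallest p per direction, the 2 members per direction with the smallest p, and the highest and lowest member of each complex. Others named in a group are its calls. The members and all gene lists were chosen with earlier results of these data known. No libraries were near enough to count as 1, since the closest pair, Pectin_PFOS 3 and 4, differed by a chi-square of 20.8 per degree of freedom.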

Additional observations from a re-analysis of the deposited data

Results flagged for a closer look

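In the groups with n = 4, 132 group values were checked for 1 library far from the others of its group. They were of named genes, of the summed CPM of all members and of each complex, and of the ratio of nuclear to mitochondrially encoded TPM. Such a library was found in 7, all of named genes, and chance alone sets apart about 1 in 20 groups. The inulin groups (n = 3) were not checked. Ndufs1 had 84.8 CPM in Pectin_PFOS 2, against 75.9 to 77.1 CPM in the other Pectin_PFOS libraries. Ndufb2 had 22.9 CPM in Pectin_PFOS 1, against 27.3 to 28.1 CPM in its group. Atp5b had 842 CPM in Pectin 1, against 1129 to 1137 CPM in the other Pectin libraries, and Atp5e had 160 CPM in Pectin 4, against 254 to 271 CPM. Ndufa11 had 61.8 CPM in PFOS 4, against 42.5 to 45.4 CPM in the other PFOS libraries. In Control, Ndufa4 had 403 CPM in library 4, against 135 to 176 CPM, and Cox5a had 239 CPM in library 3, against 158 to 170 CPM.

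For 15 named genes the effect of PFOS on inulin differed from that on pectin by edgeR's test of the difference itself. Some of them are named because this contrast, or Pectin_PFOS against Pectin within it, called them, so their number is partly set by that choice. Of all tested genes 12.3% were called higher and 13.1% lower in this contrast. The differences, inulin minus pectin in log2 units, were 1.96 for Atp5e, 1.82 for Atp5l, 1.64 for Ndufa4, 1.56 for Ndufc2, 1.51 for Ndufb2, 1.51 for Uqcr11, 1.38 for Uqcr10, 1.29 for Ndufa7 and 1.26 for Ndufb8. They were 0.99 for Cox5a, 0.97 for Ndufs8, 0.88 for Atp5g1, 0.87 for Cox6b1 and 0.75 for Ndufb9, and -1.09 for Atp5sl. With the transcript length offset the difference was -0.13 for Cox6b1 and -0.14 for Ndufb9.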

How the results depend on the processing

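Counts of changed members were 0 under every setting tried in PFOS against Control, Inulin against Control, the PFOS by pectin interaction and PFOS averaged over diets. For Inulin_PFOS against Inulin DESeq2 called 2 and all other settings 0, and for the PFOS by inulin interaction DESeq2 called 4 and leaving out 1 library gave 0 to 2. The 9 calls of Inulin_PFOS against PFOS became 0 with library totals, 26 with DESeq2, 16 with only the groups compared, 1 with the length offset, and 2, 1 and 0, all lower, in limma on log2(TPM + 1), on log2(TPM + 0.1) and without a filter. They were 0 to 20 with 1 library left out. The 3 calls of Pectin against Control became 0 with library totals, 0 with only the groups compared, 0 in each of the 3 limma fits, 1 without the count filter and 16 with DESeq2, and 0 to 5 with 1 library left out.

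The 15 calls of Pectin_PFOS against PFOS became 9 without the count filter, 7 with library totals, all lower, and 9, 7 and 7, all lower, in the 3 limma fits, and 5 to 21 with 1 library left out. The 24 calls of Pectin_PFOS against Pectin became 13 in each limma fit, 11 with the length offset (5 higher, 6 lower) and 7 to 27 with 1 library left out. The 37 calls of the PFOS effect on inulin minus that on pectin became 14, 16 and 13 in the limma fits, 9 with the length offset and 17 to 45 with 1 library left out. The cause was not tested.

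The direction turned in limma for Ndufs1 in Pectin_PFOS against PFOS (-0.14 in each fit). With the length offset it turned for Atp5k (0.0518), Cox7c (0.00883) and Ndufa7 (0.0231) in Pectin_PFOS against Pectin. In the inulin minus pectin contrast it turned for Atp5h (-0.19), Atp5k (-0.0493), Cox6b1 (-0.13), Ndufa1 (-0.43), Ndufb9 (-0.14) and Ndufs5 (-0.17).

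Replicate numbers did not pair the samples: over the 7 pairwise comparisons the deviations of same-numbered libraries correlated at -0.26 to 0.30, and in none was every pair over 0.1. With the biological replicate number as a block, 6 members were called in Inulin_PFOS against PFOS, 16 in Pectin_PFOS against PFOS, 25 in Pectin_PFOS against Pectin, 1 in Pectin against Control and 43 in the inulin minus pectin contrast. With the number in the sample label as the block these were 1, 10, 24, 1 and 31, and every other comparison had 0 under both blocks.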
